A study of Mus musculus with 4 samples.

Results

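The 10 genes described here, Foxp3, Gpr83, Ikzf2, Ikzf4, Nrp1, Lrrc32, Izumo1r, Nt5e, Entpd1 and Capg, are characteristic of regulatory T cells, and were taken by symbol from the 34745 gene rows of the deposited table. All 10 passed the filter on low counts that left 12927 genes for testing. RNA was sequenced from CD4+ T cells, isolated as naive cells from spleens of the strain C57BL/6 and held for 3 days in conditions that favour T helper 17 (Th17) cells. Libraries 13 and 15 came from wild-type (WT) mice, and libraries 22 and 24 from mice of the genotype Setd2-CD4 cre. Setd2 encodes the enzyme that trimethylates lysine 36 of histone H3, and Cre under Cd4 control acts in T cells from the thymus onward, so that regulatory T cells of these mice also carry it while B cells and myeloid cells as a rule do not. Whether the WT mice carried Cre, which part of Setd2 was targeted, and the ages of the mice are not given in the labels. No label ties the 4 libraries to separate animals or cultures, so the p-values cover only how far these samples differ, and that may be technical variation.

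Regulatory T cells restrain immune responses, and the forkhead factor Foxp3 maintains their identity. They arise in the thymus or from naive CD4+ T cells that receive transforming growth factor beta (TGF-beta), a cytokine that is also part of most Th17 culture conditions, so some cells can turn on Foxp3 in such cultures. In the classical account Foxp3 and the Th17 factor RORgamma t oppose each other. Of the remaining members, Ikzf2 and Ikzf4 act with Foxp3 in the nucleus, and Gpr83 and Nrp1 sense signals at the surface. Izumo1r is a surface protein of the folate receptor family, and Lrrc32 displays latent TGF-beta. Entpd1 and Nt5e turn extracellular ATP into adenosine, and Capg caps actin filaments. Several members are not confined to regulatory T cells: naive and activated T cells, B cells and macrophages express some of them.

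Libraries held 11007343 to 12518415 counts, and 3 counts, the most that a count of 0 allows, correspond to 0.228 to 0.292 counts per 1e6 counts (CPM). CPM here are scaled with TMM factors, which correct for differences in library composition. Setd2 measured 184 and 176 CPM in WT 13 and 15, against 144 and 153 CPM in libraries 22 and 24 (log2 fold change -0.28, SE 0.10, Benjamini-Hochberg adjusted p = 0.0748 by edgeR's quasi-likelihood test), a sum over the whole gene that does not show whether exons were removed. Of the 8 Th17 and CD4+ T cell markers, all were tested, 4 were higher, 1 was lower and 3 were not called. Among all tested genes, 16.2% were called higher and 14.5% lower. Cd4 was at 940.2 to 1139 CPM, and Il17a was at 163 and 202 CPM in WT against 570.2 and 587 CPM in Setd2-CD4 cre. Cd3e, a T cell receptor complex gene, was the lower one (log2 fold change -0.48, adjusted p = 0.0224 by edgeR), and Il17f did not pass (-0.12, adjusted p = 0.763).

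For the members that the results turn on and for which RefSeq start sites were at hand, the 300 bases from 250 before to 50 after the start (RefSeq, GRCm38.p6) are shown on the gene's own strand. Capitals mark any match, on either strand, to a forkhead motif (TGTTTAC), a RUNX motif (TGTGGT), an ETS motif (GGAAGT) or a TATA motif (TATAAA), and offsets give the first base of the match, counted from the RefSeq start site at 0. The RefSeq start of Izumo1r differs from the edge of its span in the deposited table. Foxp3 (chrX:7579426-7579725, plus strand), Gpr83 (chr9:14859960-14860259, plus strand) and Izumo1r (chr9:14903718-14904017, minus strand) were chosen because both Setd2-CD4 cre libraries lay below WT and because Gpr83 and Izumo1r are neighbours.
Foxp3: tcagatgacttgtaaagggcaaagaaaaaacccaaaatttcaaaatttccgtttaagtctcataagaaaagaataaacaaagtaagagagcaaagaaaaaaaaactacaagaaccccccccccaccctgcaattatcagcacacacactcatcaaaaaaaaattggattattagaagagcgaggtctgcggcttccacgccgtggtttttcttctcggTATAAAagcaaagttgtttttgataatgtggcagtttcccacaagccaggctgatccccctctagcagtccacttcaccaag
Gpr83: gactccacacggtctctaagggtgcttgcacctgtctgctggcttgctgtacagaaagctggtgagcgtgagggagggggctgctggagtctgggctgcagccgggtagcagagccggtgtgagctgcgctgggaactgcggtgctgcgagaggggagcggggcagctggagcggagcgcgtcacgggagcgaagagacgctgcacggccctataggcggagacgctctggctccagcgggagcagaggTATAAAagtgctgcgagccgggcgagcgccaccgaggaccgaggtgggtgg
Izumo1r: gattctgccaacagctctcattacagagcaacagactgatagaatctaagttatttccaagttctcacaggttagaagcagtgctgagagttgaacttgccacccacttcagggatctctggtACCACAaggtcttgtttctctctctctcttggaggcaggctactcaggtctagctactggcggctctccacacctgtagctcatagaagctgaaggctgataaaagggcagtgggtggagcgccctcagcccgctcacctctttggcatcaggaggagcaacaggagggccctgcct

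The Foxp3 window held TATAAA at -32, and the Gpr83 window held it at -1, a match found in 13.6% of the 32851 mouse promoter windows of this length. The Izumo1r window held the RUNX letters in reverse at -127, a match found in 16.8% of all windows. None of the 9 windows at hand for 7 of the 10 members held the forkhead letters, which 3.65% of all windows hold. The ETS letters, which 23.8% of all windows hold, were in none of the 3 shown. RefSeq gives Foxp3 a second start, whose window (chrX:7580233-7580532) held none of the 4 motifs and is not shown. These matches describe letters only.

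Setd2-CD4 cre cultures had less RNA of Gpr83, Lrrc32 and Izumo1r and more of Ikzf2 and Nt5e, while Ikzf4, Nrp1, Entpd1 and Capg overlapped between the genotypes. Foxp3 itself lay below WT in both Setd2-CD4 cre libraries, but these differed so much from each other that it did not pass. By edgeR's quasi-likelihood test, adjusted over all tested genes, 3 of the 10 members were lower and 2 were higher. Among all tested genes, 14.5% were called lower, 16.2% higher and 30.7% in either direction. The balance over all genes, 2094 higher and 1880 lower, depended on the scaling: it was 1409 higher and 2879 lower with library totals, 1565 and 2617 with upper-quartile factors, and 1267 and 2746 by limma-trend on log2(FPKM + 1). Both Setd2-CD4 cre values lay below both WT values for 4 members, as for 36.1% of tested genes, and above them for 2, as for 34.6%. The members' median log2 fold change was -0.28, beside -0.01 over all tested genes. In whole cultures, fewer cells of a type and less RNA per cell cannot be told apart.

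**Figure D1:**
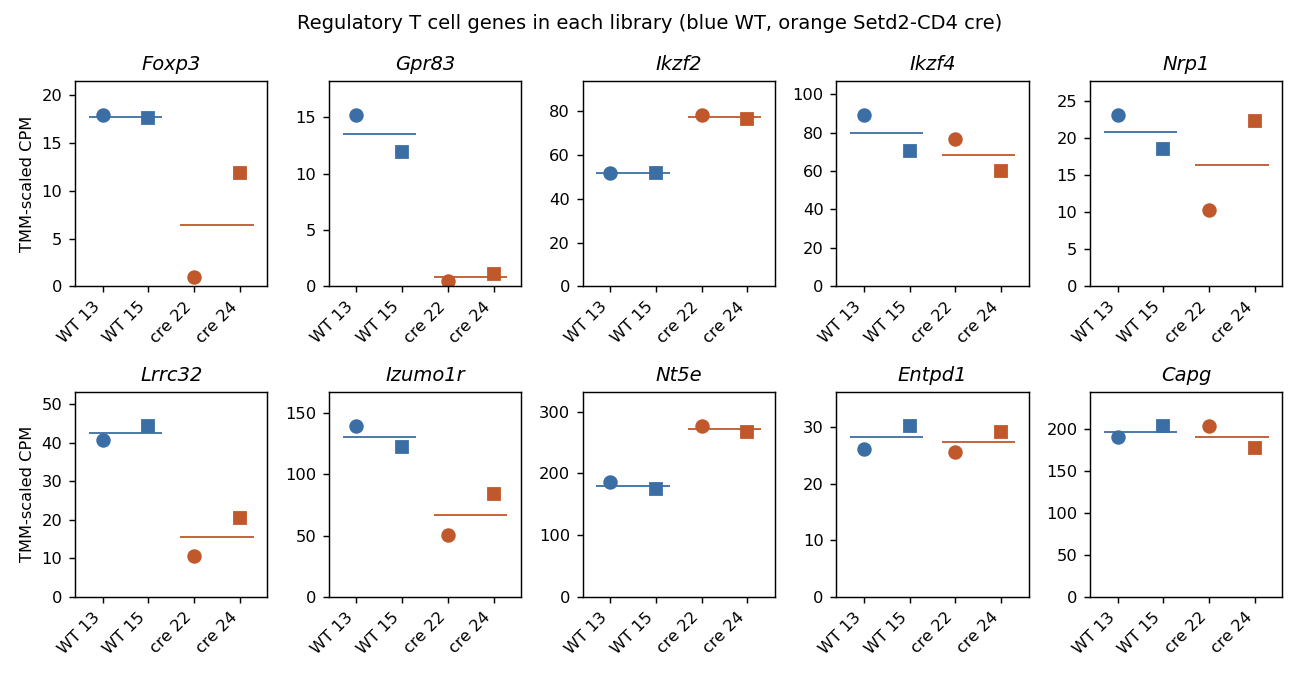
TMM-scaled CPM of the 10 members (vertical axes from 0, a separate scale for each gene) in each library; blue points are WT 13 and 15, orange points are Setd2-CD4 cre 22 and 24 (cre 22 and cre 24), and lines are the means of 2 libraries. Gpr83, Lrrc32, Izumo1r and Foxp3 lie below WT in both orange points, with Foxp3 at 0.974 CPM in 22 and 11.8 CPM in 24, and Ikzf2 and Nt5e lie above WT.

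Foxp3 (ENSMUSG00000039521, chromosome X, 7579676 to 7595243 in GRCm38, plus strand) had 235 and 231 reads in WT 13 and 15, and 10 and 129 reads in Setd2-CD4 cre 22 and 24. On the scaled level this was 17.9, 17.6, 0.974 and 11.8 CPM. The WT libraries were nearly equal, and library 22 kept 5.49% and library 24 kept 66.6% of the WT mean. The means were 17.8 ± 0.233 CPM in WT and 6.40 ± 7.67 CPM in Setd2-CD4 cre (SD, n = 2 each), and the log2 fold change of -1.46 (SE 1.12) did not pass (adjusted p = 0.409 by edgeR). With only library 24 standing for Setd2-CD4 cre the log2 fold change was -0.58 (adjusted p = 0.0250 by edgeR), and with only library 22 it was -4.17 (1.43e-10). Neither of these fits measured the spread within that genotype.

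A noncoding RNA of the same strand overlaps the start of Foxp3: Ppp1r3fos in the deposited table, named Flicr in GENCODE (ENSMUSG00000039545, chromosome X, 7573600 to 7581015), which is known as a local modulator of Foxp3. It was looked at after its values were seen. It had 15 and 28 reads in WT and 2 and 0 reads in Setd2-CD4 cre, a ratio of 17.3 for WT over Setd2-CD4 cre with a 95% counting interval of 4.52 to 148 (adjusted p = 0.0164 by edgeR, and 0.144 without WT 15). Foxp3 and this RNA differed in library 24, where Foxp3 had 129 reads and Ppp1r3fos had 0. Ppp1r3f, a protein phosphatase 1 regulatory subunit gene on the opposite strand, ends before Foxp3 begins in the deposited table but reaches into it by the GENCODE bounds. It had 134 and 131 reads in WT and 41 and 54 reads in Setd2-CD4 cre (log2 fold change -1.17, SE 0.24, adjusted p = 0.0107 by edgeR). Usp27x, a deubiquitinase gene, lies beyond it, 197813 bases from Foxp3 by the GENCODE bounds. It had 36 and 35 reads in WT and 6 and 8 reads in Setd2-CD4 cre (-2.02, SE 0.45, adjusted p = 0.0140 by edgeR). Both were thus lower in each Setd2-CD4 cre library, with 22 and 24 close together, and both calls were lost without WT 13 (0.0687 and 0.107) and without WT 15 (0.0671 and 0.105). Ccdc22, which overlaps the other end of Foxp3 on the opposite strand, had 166 and 216 reads in WT and 186 and 207 reads in Setd2-CD4 cre (adjusted p = 0.189 by edgeR). Gm36995, a transcript of the opposite strand that spans Foxp3, had 101 and 43 reads in WT and 39 and 58 reads in Setd2-CD4 cre (adjusted p = 0.667 by edgeR). Whether the counting used strand is not given in the sources used here, so reads in the overlaps are uncertain.

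Ikzf2 (Helios) and Ikzf4 (Eos) encode zinc finger factors of the Ikaros family, Helios marking mostly regulatory T cells of thymic origin and Eos acting as a corepressor with Foxp3. Ikzf2 (ENSMUSG00000025997, chromosome 1, 69531214 to 69687245) measured 51.6 and 51.9 CPM in WT 13 and 15, against 78.2 and 76.5 CPM in libraries 22 and 24. Replicates lay close together and the genotypes did not overlap. The log2 fold change was 0.58 (SE 0.11, adjusted p = 0.00857 by edgeR), and the call was lost without WT 13 (0.0862), without WT 15 (0.0902) and in the limma-trend fit of log2(FPKM + 1) (0.0715), although the fold change itself stayed between 0.57 and 0.60 when each library was left out. Ikzf4 (ENSMUSG00000002578, chromosome 10, 128630843 to 128645991) measured 89.1 and 70.4 CPM in WT 13 and 15, against 76.9 and 59.8 CPM in libraries 22 and 24. The genotypes overlapped, and the log2 fold change of -0.22 (SE 0.17) did not pass (adjusted p = 0.335 by edgeR), but it passed without Setd2-CD4 cre 22 (-0.41, adjusted p = 0.0407). Ikzf1, Ikzf3 and Ikzf5, their relatives, did not pass (adjusted p = 0.320, 0.470 and 0.268 by edgeR).

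Gpr83 encodes a G protein-coupled receptor that is enriched on regulatory T cells. It lies on chromosome 9 (ENSMUSG00000031932, 14860210 to 14870789, plus strand) and had 199 and 156 reads in WT and 5 and 12 reads in Setd2-CD4 cre, or 15.2, 11.9, 0.487 and 1.10 CPM. Both Setd2-CD4 cre libraries were above the limit of 3 counts and far below WT. The log2 fold change was -4.06 (SE 0.37, adjusted p = 0.000976 by edgeR), and it stayed between -4.76 and -3.60 and passed when each library was left out. Summed over libraries, WT was 16.8-fold higher with a 95% counting interval of 10.4 to 29.2. On the log2(FPKM + 1) scale, which compresses low genes, the difference was -1.34 (limma-trend adjusted p = 0.00543).

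Izumo1r, also called folate receptor 4, encodes a surface protein of the folate receptor family that regulatory T cells carry at high level and naive T cells at a lower one. It is the next protein-coding gene after Gpr83, 15024 bases away on the opposite strand (ENSMUSG00000031933, chromosome 9, 14885814 to 14903949). It measured 139 and 122 CPM in WT 13 and 15, against 50.6 and 83.8 CPM in libraries 22 and 24. Every Setd2-CD4 cre value was below both WT values, and library 22 was the lower of the pair. The log2 fold change was -0.96 (SE 0.24, adjusted p = 0.0343 by edgeR), lost without WT 13 (0.0930), without WT 15 (0.0617) and with no filter on low counts (0.0654), and it was -0.63 without library 22. Mre11a, a DNA repair gene on the other side of Gpr83, measured 69.8 and 66.3 CPM in WT against 77.0 and 70.1 CPM in libraries 22 and 24 (0.11, adjusted p = 0.490 by edgeR).

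Nrp1 encodes neuropilin 1, a coreceptor for semaphorins and growth factors that marks thymus-derived regulatory T cells in mice. It (ENSMUSG00000025810, chromosome 8, 128359073 to 128505462) measured 23.0 and 18.5 CPM in WT 13 and 15, against 10.3 and 22.3 CPM in libraries 22 and 24. Library 24 lay inside the WT range and library 22 lay below it. The log2 fold change of -0.35 (SE 0.37) did not pass (adjusted p = 0.511 by edgeR). It was 0.11 without library 22 (adjusted p = 0.666 by edgeR) and -1.004 without library 24 (2.69e-04), so its direction depended on which library was kept.

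Lrrc32 encodes GARP, the surface protein that holds latent TGF-beta on activated regulatory T cells. It (ENSMUSG00000090958, chromosome 7, 98489283 to 98502181) measured 40.8 and 44.3 CPM in WT 13 and 15, against 10.5 and 20.4 CPM in libraries 22 and 24. The genotypes did not overlap, and again library 22 was the lower. The log2 fold change was -1.45 (SE 0.30, adjusted p = 0.0157 by edgeR). It was -1.05 without library 22, and the call was lost without WT 15 (adjusted p = 0.0517).

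Entpd1 (CD39) and Nt5e (CD73) encode the ectoenzymes that degrade extracellular ATP to AMP and AMP to adenosine. Nt5e (ENSMUSG00000032420, chromosome 9, 88327197 to 88372092) measured 186 and 175 CPM in WT 13 and 15, against 277 and 266 CPM in libraries 22 and 24. The replicates of each genotype were close and the genotypes apart, with a log2 fold change of 0.59 (SE 0.10, adjusted p = 0.00577 by edgeR), lost without WT 15 (0.0895). Entpd1 (ENSMUSG00000048120, chromosome 19, 40612366 to 40741602) measured 26.2 and 30.2 CPM in WT 13 and 15, against 25.6 and 29.2 CPM in libraries 22 and 24. Its genotypes overlapped (log2 fold change -0.04, SE 0.15, adjusted p = 0.863 by edgeR), with the sign turning without WT 15 or without library 22. The 2 enzymes of this pathway thus had separate results, a rise for Nt5e and no call for Entpd1, and the difference between them was not tested.

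Capg encodes an actin-capping protein of the gelsolin family that belongs to regulatory T cell signatures and is abundant in macrophages. It (ENSMUSG00000056737, chromosome 6, 72544391 to 72562983) measured 190.2 and 204 CPM in WT 13 and 15, against 204 and 177 CPM in libraries 22 and 24. These values overlapped, and the log2 fold change of -0.05 (SE 0.11) did not pass (adjusted p = 0.767 by edgeR).

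**Figure D2:**
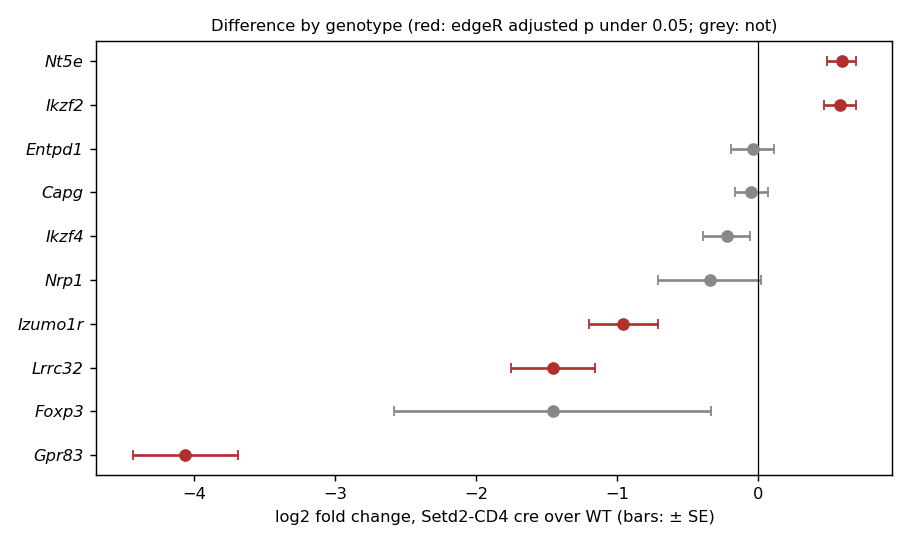
Log2 fold change of each member, Setd2-CD4 cre over WT (horizontal axis), with bars of 1 SE from edgeR; red points passed an adjusted p of 0.05. Gpr83 at -4.06 is the lowest, Foxp3 at -1.46 has the widest bar (SE 1.12), and Ikzf2 and Nt5e lie at 0.58 and 0.59.

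Compared per length, by the authors' FPKM, Capg (48.4 and 52.5 in WT) and Izumo1r (46.9 and 41.4) were the most abundant members in WT, followed by Nt5e (20.5 and 19.5). Ikzf4 (7.92 and 6.32) and Lrrc32 (4.94 and 5.41) came next. Nrp1 (4.08 and 3.31) and Entpd1 (3.22 and 3.75) overlapped each other in WT. Ikzf2 (3.13 and 3.18), Foxp3 (2.80 and 2.77) and Gpr83 (1.98 and 1.56) were the least abundant. In Setd2-CD4 cre the FPKM of Lrrc32 was 1.13 and 2.27, below that of Ikzf2 (4.22 and 4.26), the reverse of their order in WT. Izumo1r, at 15.1 and 25.9, was below Nt5e (27.2 and 27.1), also the reverse of WT. FPKM of Foxp3 there was 0.135 and 1.70, and that of Gpr83 was 0.0566 and 0.132.

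Between the Setd2-CD4 cre libraries, 5 members were at least 1.5-fold higher in 24 than in 22, and the other 5 lay closer together. Library 24 was 12.1-fold higher than 22 for Foxp3, 2.26-fold for Gpr83, 2.16-fold for Nrp1, 1.94-fold for Lrrc32 and 1.66-fold for Izumo1r. The 95% counting intervals were 6.39 to 25.9 for Foxp3, 1.71 to 2.74 for Nrp1, 1.54 to 2.47 for Lrrc32 and 1.49 to 1.85 for Izumo1r. For Gpr83, with 5 and 12 reads, the interval of 0.741 to 8.18 includes 1. All counting intervals cover counting error only. Of the 10 members, 3 were at least 2-fold higher in 24 than in 22, where 3.65% of all tested genes were, 5 were at least 1.5-fold higher, where 8.73% were, and 1, Foxp3, was at least 4-fold higher, where 0.897% were. No member was 2-fold lower in 24, where 2.79% of tested genes were.

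The other 5 members had ratios of 24 over 22 from 0.778 to 1.14. Of these, Ikzf4 (0.778, interval 0.700 to 0.864) and Capg (0.871, interval 0.818 to 0.927) were lower in 24 beyond counting error. Ikzf2 (0.978) and Nt5e (0.962), both higher than WT in each library, had intervals of 0.886 to 1.08 and 0.914 to 1.01. Between the WT libraries, no member differed as much as 1.5-fold, where 9.09% of tested genes did, with ratios of 15 over 13 from 0.783 for Gpr83 to 1.15 for Entpd1. Foxp3, at 0.982, differed little between them. With 1 library against 1 there is no test of these ratios.

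**Figure D3:**
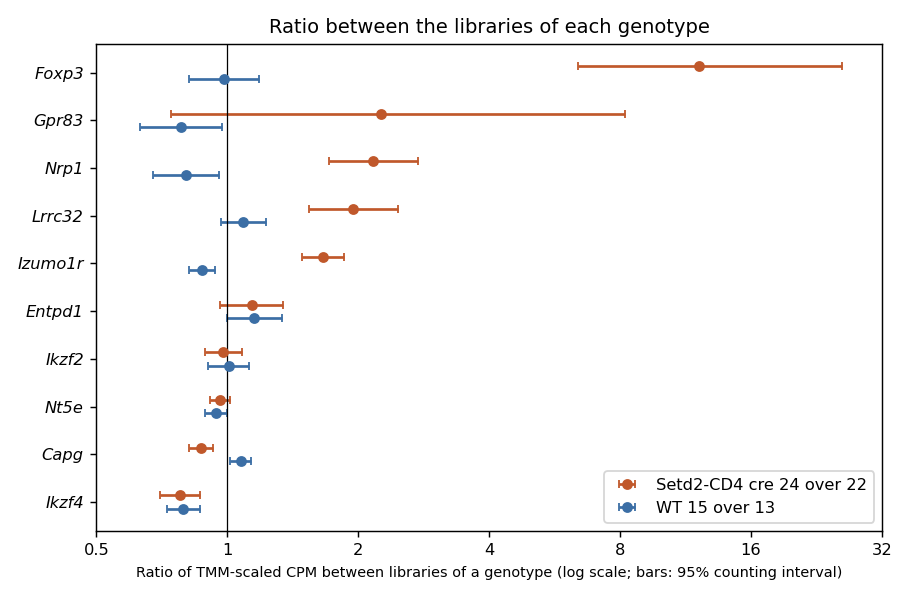
Ratio of TMM-scaled CPM between the libraries of each genotype (horizontal log axis), orange for Setd2-CD4 cre 24 over 22 and blue for WT 15 over 13, with 95% counting intervals. Foxp3 at 12.1, Gpr83 at 2.26, Nrp1 at 2.16, Lrrc32 at 1.94 and Izumo1r at 1.66 lie to the right of 1 in orange, while the blue points lie between 0.783 and 1.15.

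The 5 members at least 1.5-fold higher in 24 than in 22 also moved most by genotype when a Setd2-CD4 cre library was left out. This restates their ratios of 24 over 22, since such a fit sets the 1 library kept against WT. Without library 22, 5 members were lower by edgeR's test (Foxp3 and Ikzf4 besides Gpr83, Lrrc32 and Izumo1r), where 17.3% of tested genes were. Without library 24 there were also 5 (Foxp3 and Nrp1 besides those 3), where 21.6% of tested genes were lower. Without WT 15 none was higher, where 5.4% of tested genes were, and Gpr83 alone was lower, where 4.24% were. Without WT 13 the counts were 1 higher and 2 lower, beside 6.88% and 5.5% of tested genes.

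**Figure D4:**
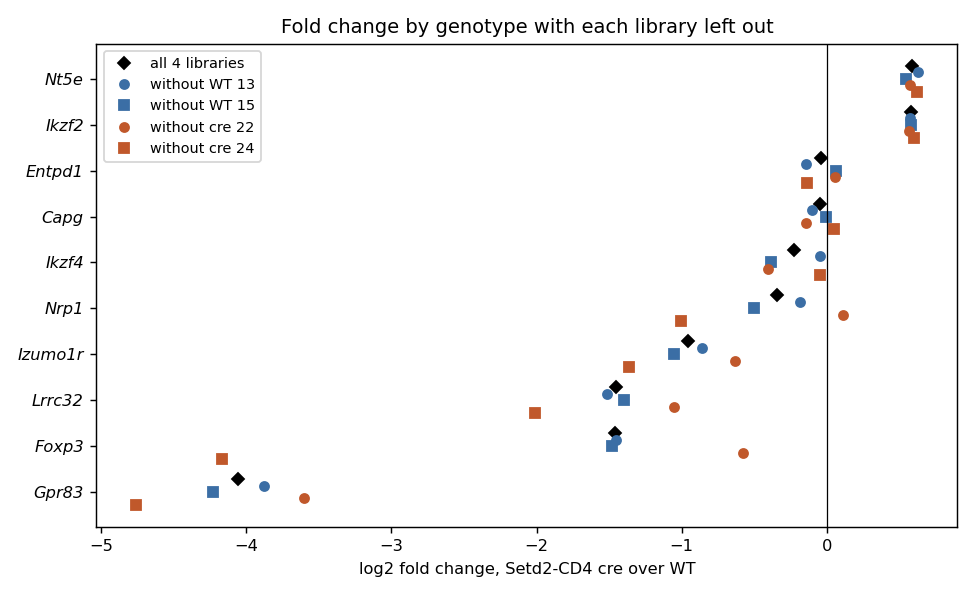
Log2 fold change of each member, Setd2-CD4 cre over WT (horizontal axis), with all 4 libraries (black) and with each library left out (blue without a WT library, orange without a Setd2-CD4 cre library). Foxp3 moves from -1.46 to -0.58 without library 22 and to -4.17 without 24, and Ikzf2 and Nt5e stay between 0.54 and 0.63.

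The genes nearest to Foxp3 in profile over the 4 libraries were Clec7a, Lyz2, Ccl24, Ccl9 and C3, genes known mainly from macrophages and other myeloid cells (a lectin receptor, lysozyme, a pair of chemokines and a complement component). Distance was Euclidean, between log2 CPM profiles centred on WT, among 10061 candidates, and was 0.52 for Clec7a and 0.87 for C3. Clec7a stood at 12.7, 8.83, 0.584 and 5.41 CPM in libraries 13, 15, 22 and 24, and Ccl9 at 15.8, 17.7, 1.46 and 7.70 CPM. Each was lowest in library 22 and intermediate in 24, as Foxp3 was. No member was among the 5, and Lrrc32 was at a distance of 2.03 from Foxp3. For Gpr83 the nearest were Prlr (0.59), Prg4 (0.68), Sema3b (1.43), Rundc3a (1.52) and Tmem136 (1.67), of which Prlr measured 18.5 and 24.5 CPM in WT 13 and 15, against 1.07 and 1.74 CPM in libraries 22 and 24. These genes were picked for their pattern over 4 libraries, so it is a description.

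**Figure D5:**
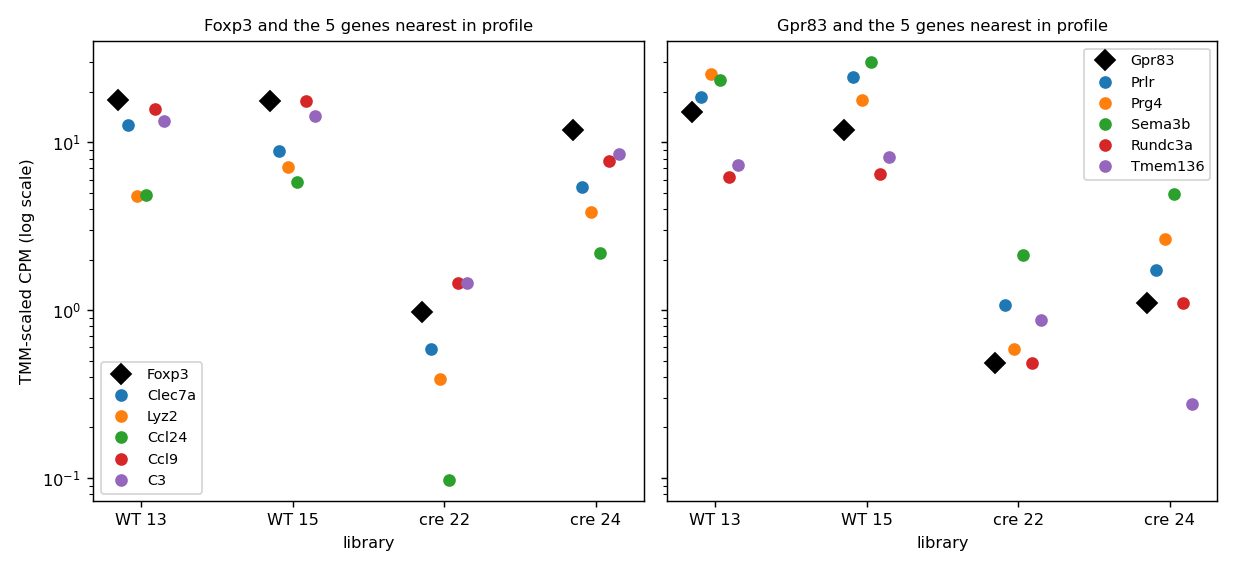
TMM-scaled CPM (vertical log axis) in each library for Foxp3 and its 5 nearest genes (left) and Gpr83 and its 5 nearest genes (right). On the left every gene is lowest in Setd2-CD4 cre 22, and on the right every gene is below WT in both Setd2-CD4 cre libraries.

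Among members, Ikzf2 and Nt5e were the closest pair in profile (distance 0.07), and Lrrc32 and Izumo1r were 0.79 apart. Gpr83 and Izumo1r, which adjoin on chromosome 9, were 4.10 apart, with log2 fold changes of -4.06 and -0.96.

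Markers of other cells varied across the same libraries. Summed over 10 macrophage and monocyte markers, the level was 82.0 and 72.9 CPM in WT, 52.0 CPM in library 22 and 75.8 CPM in library 24. Of these markers 6 passed the filter and none was called, with a median log2 fold change of -0.89. Of the 6, 3 were at least 2-fold higher in 24 than in 22, and 1 was at least 2-fold lower. Among all tested genes these shares were 3.65% and 2.79%. Ccr2, which T cells also express, made up 46.8 and 37.1 CPM of the sums in WT 13 and 15. In libraries 22 and 24 it made up 23.1 and 48.7 CPM, and without Ccr2 the sum was no higher in 24 than in 22. Of the defining macrophage markers, Cd68 measured 16.2 and 17.1 CPM in WT 13 and 15, against 21.04 and 18.4 CPM in libraries 22 and 24 (adjusted p = 0.286 by edgeR). Others were near 0: Adgre1 was at 0 in both Setd2-CD4 cre libraries and at 0.610 and 0.609 CPM in WT, and Fcgr1 was at 0 in 3 of the 4 libraries. Lyz2 was at 4.80, 7.08, 0.390 and 3.85 CPM in the order used above. Their part in the level of Foxp3, Nrp1, Entpd1 and Capg was not tested.

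Of the B cell markers all 14 were tested, with 11 higher and none lower in Setd2-CD4 cre, where 16.2% and 14.5% of tested genes were. Their summed level was 269 and 228 CPM in WT, 811 CPM in library 22 and 554 CPM in library 24, led by Ighm (208, 173, 432 and 359 CPM) and Cd22 (9.30, 11.04, 66.5 and 35.0 CPM), and no marker was at 0 in all libraries. B cells can express Nt5e and Entpd1, and the part of these cells in the rise of Nt5e was not tested. CD8 T and NK cell markers summed to 92.9 and 113 CPM in WT, 227 CPM in library 22 and 122 CPM in library 24. Of these 8 markers 6 were tested, 2 were higher and none lower, and Ncr1 was at 0 in 2 libraries. Klrd1 and Cd8a were the largest. Klrd1 was called higher (adjusted p = 0.000695 by edgeR). Cd8a was not (0.833), at 35.2 and 50.6 CPM in WT 13 and 15 against 75.3 and 24.8 CPM in libraries 22 and 24. Summed gamma-delta T cell markers were 22.8 and 18.1 CPM in WT and 76.4 and 72.5 CPM in Setd2-CD4 cre. Of these 8 markers 7 were tested, 3 were higher and none lower. The largest were Blk (3.43, 3.12, 38.5 and 23.9 CPM in libraries 13, 15, 22 and 24) and 5830411N06Rik (3.05, 3.81, 20.7 and 27.0 CPM). These 2 genes made up most of the rise of the sum in both Setd2-CD4 cre libraries. Blk was lower in 24 than in 22, as Cd22 was, while 5830411N06Rik was higher. Summed dendritic cell markers were 449.6 and 426 CPM in WT and 642 and 549 CPM in Setd2-CD4 cre. Of these 10 markers 7 were tested, 4 were higher and none lower, and Siglech was at 0 throughout. The largest were Ccr7, which T cells express (adjusted p = 0.413 by edgeR), and Cd74. Cd74 measured 42.4, 40.2, 157.5 and 84.9 CPM in libraries 13, 15, 22 and 24, lower in 24 than in 22 as Cd22 was. Which cells the reads of Blk and Cd74 came from was not tested.

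Of 22 other genes of the regulatory T cell program, 21 were tested, 6 rose and 3 fell, and the median log2 fold change was 0.22. Beside the counts called in this list and the lists that follow, 16.2% of all tested genes were called higher and 14.5% lower. The inhibitory receptor gene Tigit rose (36.3 and 28.4 to 89.1 and 108 CPM, log2 fold change 1.61, SE 0.16, adjusted p = 0.00118 by edgeR). Il12a, which encodes a chain of interleukin 35 with the product of Ebi3, rose from 0.534 and 0.381 to 4.48 and 3.12 CPM (3.02, SE 0.48, adjusted p = 0.00409). Of these 21 genes, 1 was at least 2-fold higher in library 24 than in 22, namely Il1rl1, the interleukin 33 receptor gene (25.2 and 17.3 CPM in WT, 3.70 and 11.1 CPM in 22 and 24, adjusted p = 0.0977 by edgeR), named after its values were seen.

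Among 27 regulators known to act on the Foxp3 locus, 8 were higher and 3 lower, with a median of 0.16. Nr4a3, an orphan receptor induced by T cell receptor signals, rose from 48.1 and 48.0 to 113 and 119 CPM (1.27, SE 0.11, adjusted p = 0.000915 by edgeR). Tet2, an enzyme of DNA demethylation, rose from 118 and 111 to 232 and 249 CPM (1.07, SE 0.11, adjusted p = 0.00114). Among these regulators 0 were at least 2-fold apart between libraries 22 and 24 on TMM-scaled CPM, where 6.44% of tested genes were. The nearest was Ets1, an ETS factor gene (526 and 1046 CPM), at 1.99-fold by CPM and 2.05-fold by FPKM.

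Of 18 genes encoding protein partners of Foxp3, 4 rose and 3 fell, with a median of 0.09. Rora, a nuclear receptor gene of the Th17 program, rose (132 and 146 to 319 and 390.5 CPM, log2 fold change 1.35, SE 0.13, adjusted p = 0.00106 by edgeR). Lef1, a factor gene of naive T cells, fell (334 and 325 to 241 and 199.9 CPM, -0.58, SE 0.12, adjusted p = 0.0110), lost without WT 13 (0.0721) and without WT 15 (0.0662).

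Around Lrrc32, 9 of 11 genes for display and activation of latent TGF-beta were tested, 1 rose and 1 fell, and the median was -0.22. Hsp90b1, the chaperone gene that GARP depends on, rose from 802 and 808 to 1111 and 1195 CPM (0.52, SE 0.12, adjusted p = 0.0153 by edgeR). Tgfbr1, a TGF-beta receptor gene, fell from 72.1 and 76.8 to 46.6 and 59.3 CPM (-0.49, SE 0.14, adjusted p = 0.0356). Both calls were lost without WT 13 (0.168 and 0.117) and without WT 15 (0.174 and 0.207).

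Around Nt5e and Entpd1, 11 of 17 genes of extracellular nucleotide and adenosine handling were tested, 2 rose and 1 fell, with a median of -0.17. Adora2a, the adenosine receptor gene of T cells, rose from 29.3 and 29.9 to 53.9 and 52.4 CPM (0.84, SE 0.13, adjusted p = 0.00339 by edgeR). Enpp1, a nucleotide pyrophosphatase gene, rose from 51.5 and 46.7 to 78.5 and 90.8 CPM (0.79, SE 0.13, adjusted p = 0.0044). Entpd8 and Adora1 were at 0 in all 4 libraries.

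Around Nrp1, 7 of 11 ligand and coreceptor genes were tested, none rose and 3 fell, with a median of -0.20. Gipc1, an adaptor that binds neuropilin 1, fell from 47.6 and 53.4 to 23.0 and 31.5 CPM (-0.89, SE 0.18, adjusted p = 0.00916 by edgeR), lost without WT 15 (0.0593). The ligand gene Sema4a fell from 78.2 and 81.6 to 57.1 and 43.4 CPM (-0.67, SE 0.15, adjusted p = 0.0139), lost without WT 13 (0.0512) and WT 15 (0.0813). Of 19 genes related to the members by descent, 14 were tested, 1 rose (Vil1, at 0.305 and 0.305 CPM in WT and 1.07 and 1.38 CPM in Setd2-CD4 cre, adjusted p = 0.0417 by edgeR) and 1 fell (Nrp2). Nrp2, the relative of Nrp1, had 71 reads summed over WT and 13 over Setd2-CD4 cre, a ratio of 4.41 for WT over Setd2-CD4 cre with a 95% counting interval of 2.42 to 8.68 (adjusted p = 0.0233 by edgeR). The call of Nrp2 was lost by limma-trend (adjusted p = 0.0804), and in edgeR without WT 13 and without WT 15. That of Vil1 was lost by DESeq2 (adjusted p = 0.159) and by limma-trend (0.0606). In edgeR it was lost with library totals (0.0521), with no filter on low counts (0.0735) and without any 1 of the 4 libraries.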

How the data were processed

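The deposited table holds, per the file headers, a whole-number read count and an FPKM value (scaled to gene length and library total) for every gene and library. Bowtie2, RSEM, GRCm38.p6 and mm10 appear in the submitters' processing notes without versions or roles. Not given in the sources used here are the gene models, the use of strand and the treatment of shared reads. Groups and replicate numbers were taken from sample titles. For WT 15 the cell type label begins 14 where the title begins 15, and the title was followed. No per-sample column was left unused.

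Counts were tested with edgeR 4.0.16 in R 4.3.3, with TMM factors, filterByExpr by genotype, a robust quasi-likelihood fit, Benjamini-Hochberg adjustment over 12927 genes and a threshold of 0.05. The SE is the log2 fold change divided by the root of its F value. With 2 libraries against 2, an exact permutation test of 1 gene cannot give a two-sided p below 0.333. Alternatives were other scalings and filters, DESeq2 1.42.0, limma 3.58.1 (voom on counts, and trend on log2(FPKM + 1)) and each library left out. The fits were tested on simulated data. Ratios between libraries carry exact binomial intervals (95%).

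Coordinates are those of the deposited table. GENCODE M21 (GRCm38), used for neighbours, gives other bounds for Foxp3 and Nrp1. Itgam stands on 2 rows of the table, and the row GENCODE names so was used. The members and lists were chosen with earlier results of these data known. Named are all members, the 2 genes with the smallest p and any gene at least 4-fold apart between libraries 22 and 24 in each list, the 2 largest markers of each marker list and the 5 genes nearest in profile to Foxp3 and to Gpr83, the last restricted to genes averaging 5 CPM or more in 1 genotype, without predicted-gene names, at a prior count of 2. Genes named outside this rule (the neighbours of Foxp3 and Gpr83 on the chromosome, the Ikaros relatives, Il1rl1, Ets1, Cd3e, Il17f and the markers given as near 0 or at 0) were chosen after their values were seen.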

Additional observations from a re-analysis of the deposited data

How the results depend on the processing

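No paired analysis was possible because the genotypes share no replicate number. Over the settings with each library left out, tested genes called higher ranged from 718 to 3068 and lower from 564 to 2903, beside 2094 and 1880 with all libraries, and members called higher ranged from 0 to 2 and lower from 1 to 5. Each such fit left 1 library of a genotype, which was assumed to vary like the pair of the other. With library totals 1409 genes were higher and 2879 lower, with upper-quartile factors 1565 and 2617, and by limma-trend on log2(FPKM + 1) 1267 and 2746, with 1 member higher, so that more genes were lower than higher in these 3 settings. At a fold of 1.5 in place of 2 between Setd2-CD4 cre 24 and 22, 5 members were higher in 24 and 2130 tested genes differed either way, and at a fold of 4 these were 1 and 176, beside 3 and 833. With each library left out, log2 fold changes ran from -1.004 to 0.11 for Nrp1 (above 0 without Setd2-CD4 cre 22), from -0.14 to 0.063 for Entpd1 (above 0 without WT 15, or Setd2-CD4 cre 22 at 0.058) and from -0.15 to 0.050 for Capg (above 0 without Setd2-CD4 cre 24), and none of the 3 was called with all libraries. Setd2 passed in edgeR with upper-quartile factors (-0.39, adjusted p = 0.0242) and with library totals (-0.43, 0.0216), by limma-trend (-0.38, adjusted p = 0.0439) and without Setd2-CD4 cre 24 (-0.32, adjusted p = 0.0105 by edgeR). Upper-quartile factors, library totals and the FPKM scale moved the median of all genes to -0.12, -0.16 and -0.12. Gpr83 passed in all 12 alternatives run. Depth limits Gpr83 and Ppp1r3fos most, with 17 and 2 reads summed over Setd2-CD4 cre.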
